A study of Mus musculus with 6 samples.

Results

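The 10 genes described here encode enzymes that remove superoxide and peroxides: the peroxiredoxins Prdx1, Prdx2, Prdx3, Prdx5 and Prdx6, the superoxide dismutases Sod1 and Sod2, the glutathione peroxidase Gpx1, catalase (Cat), and Fam213a, a thioredoxin-fold protein related to the peroxiredoxins that RefSeq now names Prxl2a. They were taken by symbol from 12911 genes listed in each library, and all 10 passed the filter on low counts that left 12786 tested genes. Fam213a was included because it is among the strongest differences between STZ and control in these libraries, and the others because of their enzyme family. The difference between STZ and control is therefore a description for all 10, with no test.

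Expression was measured by RNA sequencing of endothelial cells from the capillaries of the glomerulus, the filter of the kidney, sorted as an EYFP fluorescent population from bead-isolated, digested glomeruli. The STZ group (3 libraries) came from eNOS-null mice treated with streptozotocin (STZ), a beta-cell toxin used as a model of diabetes (DM in the labels). The control group (3 libraries) came from eNOS-null mice with no treatment. All animals of both groups are thus described as lacking endothelial nitric oxide synthase. Each library holds pooled RNA of 4 mice, so errors measure the spread between pools. The sources used here do not give the driver of EYFP or the age, sex, strain and STZ schedule of the mice.

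Superoxide leaks from the respiratory chain and is made by oxidases, and superoxide dismutases convert it to hydrogen peroxide. Peroxiredoxins, catalase and glutathione peroxidases then remove the peroxide, catalase mainly in peroxisomes and the others in the cytosol, mitochondria and further compartments. Peroxiredoxins are recharged mainly by thioredoxin, glutathione peroxidases by glutathione, and both chains draw on NADPH. In endothelium the same reactions set how much superoxide is left to consume nitric oxide.

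Total counts were 10734376 to 12662371.5 in STZ pools and 4387339 to 8751732.5 in control pools, so every STZ library was the deeper. The label of endothelium held, since the summed level of 10 glomerular endothelial markers was 24890 to 26960 CPM (counts scaled to the normalised library size) in STZ pools and 14150 to 16450 CPM in control pools. Transcripts of other cells were present as well. The summed level of 10 podocyte markers was 5576 to 6796 CPM in STZ pools and 4997 to 7841 CPM in control pools. That of 10 mesangial and mural markers was 406 to 751 CPM in STZ pools and 1026 to 1137 CPM in control pools. The endothelial sum was thus higher, and the mesangial and mural sum lower, in every STZ pool than in every control pool. The part of such shifts in cell content in the differences below was not tested. Xist, transcribed from the inactive X chromosome of female cells, stood at 0.387 to 0.865 CPM in STZ pools and at 690 to 746 CPM in control pools, so treatment and the sex of the mice cannot be told apart in any difference below. Nos3, the gene of endothelial nitric oxide synthase, is named after its value was seen. It had 613, 749 and 667 CPM in STZ pools, against 847, 757 and 917 CPM in control pools. These counts do not by themselves show loss of the enzyme, which rests on the description of the mice.

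Fam213a had by far the largest difference of the 10 genes. Its protein has a peroxiredoxin-like redox site and is annotated with antioxidant activity and with regulation of osteoclast differentiation. Fam213a (NM_027464; mm10 chromosome 14, 40993740 to 41013775, minus strand) had deposited counts of 898, 987 and 952 in STZ pools 1, 2 and 3, against 217, 129 and 81 in control pools 1, 2 and 3. In CPM this was 86.8, 85.4 and 77.05 in STZ pools, against 23.9, 20.7 and 17.9 in control pools. The groups lay far apart: the lowest STZ pool stood above the highest control pool by more than the whole spread of either group. The mean was 83.1 ± 5.27 CPM in STZ pools and 20.8 ± 2.98 CPM in control pools (SD, n = 3 each), a log2 fold change of STZ over control of 1.98 ± 0.12 (SE), or 3.94-fold. Of 12786 tested genes, 16 had a larger log2 fold change. Across 14 alternative settings of normalization, filter, test, pairing, depth and libraries it ran from 1.89 to 2.10.

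The promoter window of Fam213a (250 bases before to 50 bases after the annotated start that lies nearest to the listed one, 29 bases away) is printed because this gene holds the largest difference. Those of Prdx1 and Sod1 follow because they alone among the 9 members with a window held the core of the antioxidant response element, the binding sequence of the oxidative stress factor Nrf2. Sequences are those of RefSeq on GRCm38.p6, the same assembly as mm10, written 5′ to 3′ on the strand of the gene. Capitals mark the motif match, which reads on the opposite strand in both genes, and the Fam213a window has no such match.
Fam213a, chr14:41013755-41014054, minus strand: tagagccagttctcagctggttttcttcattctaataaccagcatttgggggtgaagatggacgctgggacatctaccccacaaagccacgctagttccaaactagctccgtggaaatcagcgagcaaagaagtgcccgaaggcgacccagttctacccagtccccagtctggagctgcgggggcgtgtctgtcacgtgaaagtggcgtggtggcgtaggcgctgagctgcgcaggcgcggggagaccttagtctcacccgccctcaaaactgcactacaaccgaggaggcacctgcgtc
Prdx1, chr4:116685349-116685648, plus strand: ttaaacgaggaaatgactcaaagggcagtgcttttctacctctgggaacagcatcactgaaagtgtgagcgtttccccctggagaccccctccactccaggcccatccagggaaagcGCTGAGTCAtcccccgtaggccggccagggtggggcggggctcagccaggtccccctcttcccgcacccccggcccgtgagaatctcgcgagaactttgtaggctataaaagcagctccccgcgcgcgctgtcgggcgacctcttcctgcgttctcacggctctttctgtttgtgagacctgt
Sod1, chr16:90220512-90220811, plus strand: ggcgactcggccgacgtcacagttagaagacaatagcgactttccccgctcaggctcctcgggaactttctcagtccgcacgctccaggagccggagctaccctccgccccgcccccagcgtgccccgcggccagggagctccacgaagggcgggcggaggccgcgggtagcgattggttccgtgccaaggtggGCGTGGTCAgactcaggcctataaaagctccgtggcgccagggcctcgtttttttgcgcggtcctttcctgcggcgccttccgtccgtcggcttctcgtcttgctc

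Windows were found for 9 of the 10 members, all but Prdx6. The window of Prdx5 was placed on an annotated start 461 bases from the listed one, which lies outside that window. The antioxidant response element core, TGACNNNGC searched on both strands, occurred in 2 of 9 windows, beginning 133 bases before the start of Prdx1 and 56 bases before that of Sod1. The same letters occur in 12.4% of the 32851 windows of the table. A pattern of the glucocorticoid response element occurred in 0 of 9 windows and in 0.475% of all windows, and the forkhead site GTAAACA in 0 of 9 and in 3.65%. The GC box GGGCGG, a site of Sp factors, occurred in 9 of 9 member windows and in 35.7% of all windows. It did not overlap any antioxidant response element match. The share of G and C ran from 57.0% in Prdx3 to 68.7% in Prdx2 over 8 of the windows and was 47.0% in Gpx1, against a median of 52.7% over the table. A match is a description of letters, not of a bound site.

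Among the cytosolic peroxiredoxins, Prdx1 and Prdx2 were moderately higher in STZ pools. Prdx1, an abundant thioredoxin-dependent peroxidase (NM_011034; chromosome 4, 116685599 to 116700000, plus strand), had 312, 246 and 299 CPM in STZ pools 1, 2 and 3, against 231, 236 and 220 CPM in control pools 1, 2 and 3. The groups did not overlap, but STZ pool 2 came within the control spread of the highest control pool. The mean was 285 ± 34.7 CPM in STZ pools and 229 ± 8.15 CPM in control pools (SD, n = 3 each), and the log2 fold change was 0.32 ± 0.10 (SE). Prdx2, the closely related peroxidase that is very abundant in red cells (NM_011563; chromosome 8, 84969648 to 84974313, plus strand), had 139, 113 and 118 CPM in STZ pools, against 103, 104 and 86.4 CPM in control pools. Every STZ pool again lay above every control pool, with STZ pool 1 highest and control pool 3 lowest. The mean was 123 ± 13.6 CPM in STZ pools and 97.7 ± 9.82 CPM in control pools (SD, n = 3 each), a log2 fold change of 0.33 ± 0.11 (SE).

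The red cell marker list was also higher in STZ pools. Of its 7 tested members, 5 were higher in STZ by the edgeR quasi-likelihood test, against 5.47% of all tested genes. The summed level was 283, 267 and 168 CPM in STZ pools 1, 2 and 3, against 29.8, 77.7 and 41.97 CPM in control pools 1, 2 and 3. Prdx1, Prdx2 and the red cell sum were all highest in STZ pool 1. Prdx1 and Prdx2 were lowest in STZ pool 2 and control pool 3, and the red cell sum in STZ pool 3 and control pool 1. Alas2, the heme synthesis enzyme of red cell precursors, chosen after its value was seen, had 41.2, 33.03 and 23.6 CPM in STZ pools, against 3.52, 8.99 and 9.06 CPM in control pools (adjusted p = 0.0141, and adjusted p = 0.118 with the replicate number as a block). The red cell genes Slc4a1 and Ahsp had no row in the tables used here. Hbb-bs, an adult beta globin also chosen after its value was seen, had 19.8, 19.9 and 12.95 CPM in STZ pools, against 2.75, 3.69 and 1.55 CPM in control pools (log2 fold change 2.67 ± 0.27, adjusted p = 5.69e-05), and was called in all 14 alternatives. Hbb-bt and Hbb-b2 carry identical values and are not separate measurements, though both enter the 5 calls and the sums above. Their call (log2 fold change 2.45 ± 0.47, adjusted p = 0.0400) was lost without STZ pools 1 or 2 (adjusted p = 0.135 and 0.100) or control pools 1 or 3 (0.0677 and 0.134). The part of red cell RNA in the levels of Prdx2, Sod1, Cat or Gpx1 was not tested.

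Exons of Prdx2 overlap those of Junb and Rnaseh2a on the opposite strand in GENCODE M21, and the sources used here do not give the strand setting of the counts, so their reads cannot be told apart. Both neighbours are named for this overlap after their values were seen. Junb, an immediate early transcription factor, had a log2 fold change of 0.51 ± 0.37 (SE, adjusted p = 0.496 by edgeR). Rnaseh2a, a subunit of the nuclease of RNA-DNA hybrids, stood at 27.2, 29.8 and 28.5 CPM in STZ pools 1, 2 and 3, against 21.98, 22.3 and 19.7 CPM in control pools (0.41 ± 0.12, adjusted p = 0.0497). Prdx2 and Prdx6 also have copies named in the annotation, Prdx2-rs3, Prdx6-ps2 and Prdx6b, so their counts depend on how shared reads were treated.

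The peroxiredoxins of mitochondria and of several compartments showed small differences and overlapping groups. Prdx3, the peroxidase of the mitochondrial matrix (NM_007452; chromosome 19, 60864066 to 60874538, minus strand), had 56.6, 47.9 and 55.04 CPM in STZ pools 1, 2 and 3, against 50.9, 57.8 and 44.2 CPM in control pools 1, 2 and 3. The highest of the 6 values was control pool 2 and the lowest was control pool 3. The log2 fold change was 0.06 ± 0.12 (SE), with means of 53.2 ± 4.62 CPM in STZ pools and 51.0 ± 6.82 CPM in control pools (SD, n = 3 each). Its direction turned without control pool 3 (-0.02) and after thinning to equal depth (-0.03).

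Prdx5, a peroxidase of mitochondria, peroxisomes and cytosol (NM_012021; chromosome 19, 6906819 to 6909645, minus strand), had 55.4, 46.8 and 57.1 CPM in STZ pools, against 53.4, 74.2 and 41.1 CPM in control pools. Control pools 2 and 3 held the highest and the lowest of the 6 values, so the STZ pools lay wholly within the control range. Its mean was 53.1 ± 5.55 CPM in STZ pools and 56.2 ± 16.7 CPM in control pools (SD, n = 3 each), and its log2 fold change of -0.09 ± 0.19 (SE) became 0.16 without control pool 2. Exons of Prdx5 overlap those of Trmt112 on the opposite strand, a methyltransferase partner named for that overlap, whose log2 fold change was -0.10 ± 0.10.

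Prdx6, which uses glutathione in place of thioredoxin and also acts on phospholipids (NM_007453; chromosome 1, 161240112 to 161251166, minus strand), had 49.1, 40.5 and 51.3 CPM in STZ pools, against 46.9, 47.5 and 41.3 CPM in control pools. The lowest and the highest value were both from STZ pools. The mean was 47.0 ± 5.73 CPM in STZ pools and 45.3 ± 3.43 CPM in control pools (SD, n = 3 each), a log2 fold change of 0.05 ± 0.12 (SE) that turned to -0.02 without STZ pool 3 and to -0.0033 without control pool 3. Prdx4, the remaining peroxiredoxin, of the endoplasmic reticulum, is not one of the 10 and was named after its value was seen. It had 43.6, 41.9 and 38.5 CPM in STZ pools, against 30.8, 37.1 and 34.2 CPM in control pools (log2 fold change 0.28 ± 0.11, adjusted p = 0.147 by edgeR).

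The superoxide dismutases differed from each other. Sod1, the copper and zinc enzyme of the cytosol (NM_011434; chromosome 16, 90220742 to 90226324, plus strand), had 359, 304 and 305 CPM in STZ pools 1, 2 and 3, against 251, 262 and 237 CPM in control pools 1, 2 and 3. All STZ pools stood above all control pools, and STZ pool 1 was the highest by a wide margin. The mean was 322.5 ± 31.4 CPM in STZ pools and 250.0 ± 12.2 CPM in control pools (SD, n = 3 each), a log2 fold change of 0.37 ± 0.10 (SE), or 1.29-fold. Sod2, the manganese enzyme of the mitochondrial matrix (NM_013671; chromosome 17, 13007839 to 13018119, plus strand), had 53.1, 48.2 and 49.8 CPM in STZ pools, against 50.8, 61.7 and 51.9 CPM in control pools. Control pool 2 was the highest, and the other 5 values lay close together. Its mean was 50.3 ± 2.50 CPM in STZ pools and 54.8 ± 5.99 CPM in control pools (SD, n = 3 each), a log2 fold change of -0.12 ± 0.11 (SE), which was -0.03 without control pool 2.

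Catalase and Gpx1, which remove hydrogen peroxide without thioredoxin, were slightly higher in STZ pools on average, with overlapping groups. Cat, the peroxisomal heme enzyme (NM_009804; chromosome 2, 103453904 to 103485153, minus strand), had 107, 102 and 95.02 CPM in STZ pools 1, 2 and 3, against 92.4, 97.97 and 81.7 CPM in control pools 1, 2 and 3. STZ pool 3 lay below control pool 2. The mean was 101.3 ± 5.99 CPM in STZ pools and 90.7 ± 8.25 CPM in control pools (SD, n = 3 each), a log2 fold change of 0.16 ± 0.09 (SE).

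Gpx1, a selenium enzyme that uses glutathione (NM_008160; chromosome 9, 108339080 to 108340344, plus strand), had 113, 116 and 90.6 CPM in STZ pools, against 76.6, 102 and 108 CPM in control pools. Control pool 1 was the lowest and STZ pool 3 the next. The mean was 106.5 ± 13.8 CPM in STZ pools and 95.4 ± 16.5 CPM in control pools (SD, n = 3 each), a log2 fold change of 0.17 ± 0.14 (SE), which was 0.03 without control pool 1.

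**Figure D1:**
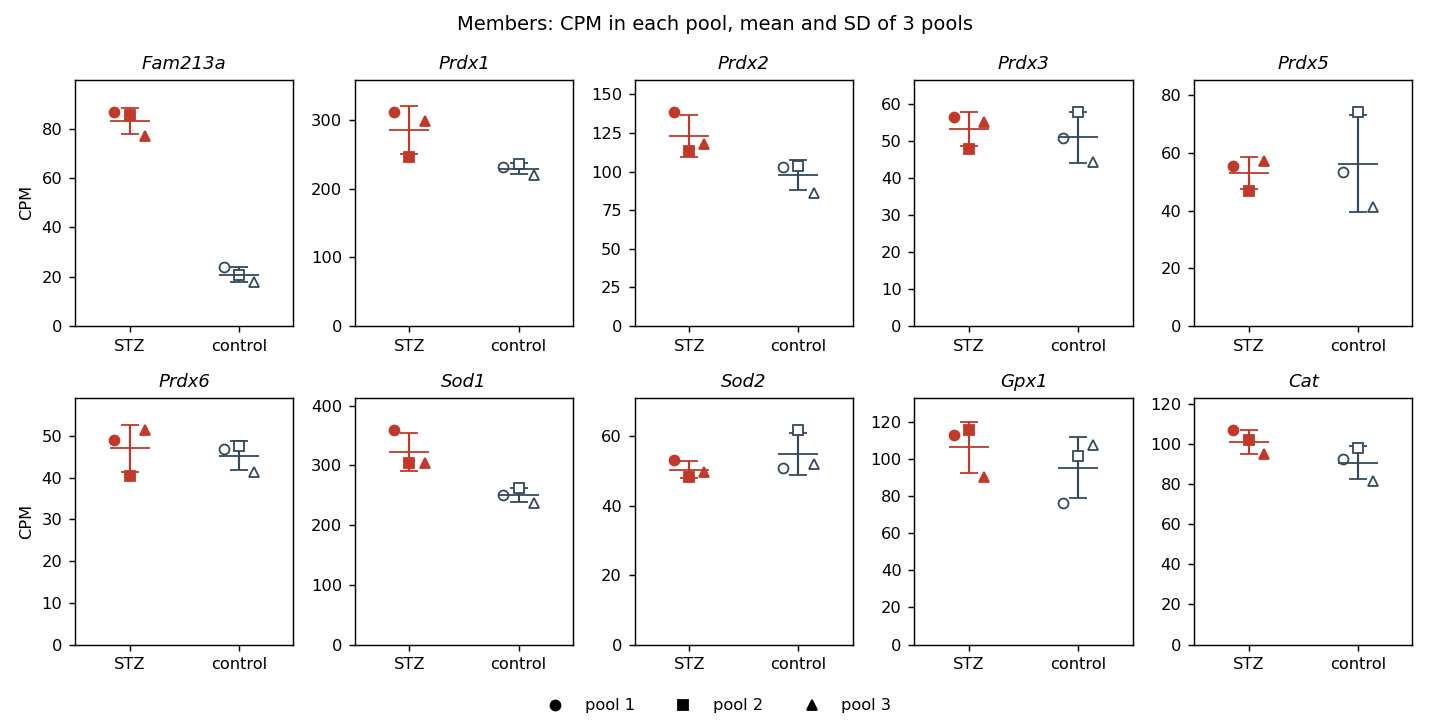
CPM (vertical axis, from 0) of each of the 10 genes in the STZ pools (filled, left) and the control pools (open, right), with the mean and SD of 3 pools. Fam213a stands at 77.05 to 86.8 CPM in STZ pools and at 17.9 to 23.9 CPM in control pools, and groups also do not overlap in Prdx1, Prdx2 and Sod1.

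All STZ pools lay above all control pools in 4 of the 10 genes, against 15.4% of tested genes, and below them in 0 of the 10, against 13.7%. Since Fam213a was chosen on this contrast and the other genes with its results known, nothing is read from these counts. The median log2 fold change was 0.16 over the 10 genes, 0.16 without Fam213a and -0.01 over all tested genes.

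The 9 genes other than Fam213a spanned log2 fold changes of -0.12 to 0.37, that is 0.919-fold to 1.29-fold. Their summed level was 1243, 1064 and 1120 CPM in STZ pools 1, 2 and 3, against 956, 1042 and 912 CPM in control pools 1, 2 and 3. STZ pool 2 and control pool 2 were nearly equal in this sum. Sod1, Prdx2 and Prdx1 had the larger differences of the 9, then Gpx1 and Cat, while Prdx3, Prdx6, Prdx5 and Sod2 lay near 0 on either side. All 10 genes carry the annotation of mitochondrion in the deposited tables, as do 10.5% of the 12911 listed genes, so that annotation does not separate the members.

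Levels between genes were compared per length, as CPM per kilobase of the listed transcript. In STZ pools Sod1 stood highest at 498 ± 48.4, followed by Prdx1 at 201 ± 24.5, Prdx2 at 131 ± 14.4, Gpx1 at 102 ± 13.2 and Prdx5 at 77.2 ± 8.06 CPM per kilobase (SD, n = 3). Fam213a came next at 54.05 ± 3.43, above Cat at 39.7 ± 2.35, Prdx3 at 36.8 ± 3.20, Prdx6 at 20.1 ± 2.46 and Sod2 at 13.2 ± 0.655. Of these neighbours, Cat and Prdx3 were the pair whose ranges over the STZ pools overlapped.

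In control pools the order was the same except for Fam213a, which was last at 13.6 ± 1.94 CPM per kilobase (SD, n = 3), just under Sod2 at 14.3 ± 1.57 and overlapping it. Sod1 averaged 386 ± 18.8, Prdx1 161 ± 5.75 and Prdx2 104 ± 10.4 CPM per kilobase in control pools. The ranges of Prdx2 and Gpx1 (91.1 ± 15.8), of Gpx1 and Prdx5 (81.7 ± 24.3), and of Cat (35.6 ± 3.23) and Prdx3 (35.3 ± 4.72) also overlapped there, so those neighbours were not set apart by their spread. Without division by length the long Sod2 transcript (3824 bases) and the long Cat transcript (2551 bases) moved up and the short Prdx5 transcript (688 bases) moved down.

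**Figure D2:**
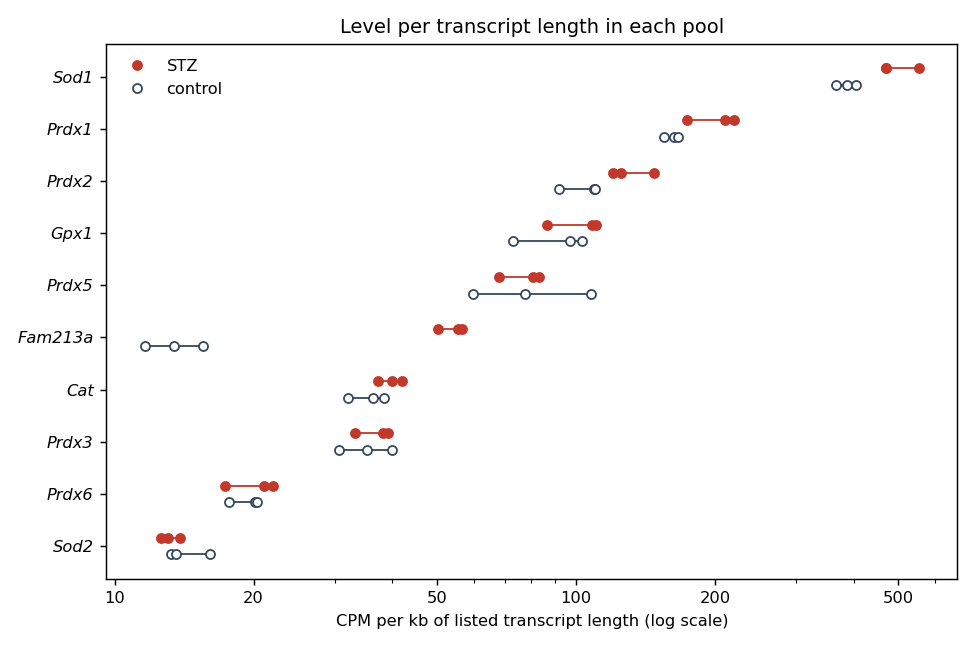
CPM per kilobase of listed transcript length (horizontal axis, log scale) in each STZ pool (filled, upper row of each gene) and control pool (open, lower row), ordered by the STZ mean, with lines over the range. Fam213a lies between Prdx5 and Cat in STZ pools at 50.1 to 56.5 and beside Sod2 in control pools at 11.6 to 15.5.

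Within the groups 6 of the 10 members shared a pattern among pools. Among STZ pools, 7 of the 10 genes were lowest in pool 2, as were 38.8% of tested genes, and among control pools 8 were lowest in pool 3, as were 37.02% of tested genes. Prdx1, Prdx2, Prdx3, Prdx5, Prdx6 and Sod1 were lowest in both, as were 19.2% of tested genes. Gpx1 went the other way, being highest in STZ pool 2 and in control pool 3. Fam213a and Cat were lowest in STZ pool 3 and control pool 3, and Sod2 in STZ pool 2 and control pool 1. The coefficient of variation was highest in Gpx1 among STZ pools, at 13.0%, and in Prdx5 among control pools, at 29.8%. It was 10.4% for Prdx5 in STZ pools and 17.3% for Gpx1 in control pools.

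The same pools were the lowest for 3 marker lists of other kidney cells. Control pool 3 was also lowest for the endothelial list (14150 CPM, against 16450 and 15800 CPM in control pools 1 and 2). The same held for the leukocyte list (113 CPM, against 134 and 185 CPM). Among STZ pools these 2 lists were lowest in pool 3 (24890 and 138 CPM), and the red cell list was lowest in STZ pool 3 and control pool 1. The summed podocyte level was 5576 CPM in STZ pool 2, against 6796 and 6751 CPM in STZ pools 1 and 3, and 4997 CPM in control pool 3, against 7069 and 7841 CPM in control pools 1 and 2. The summed level of 6 tubule markers was 39.7 CPM in STZ pool 2, against 142 and 226.5 CPM in STZ pools 1 and 3, and 144 CPM in control pool 3, against 287 and 464 CPM in control pools 1 and 2. The summed level of the mesangial and mural markers was 406 CPM in STZ pool 2, against 655.5 and 751 CPM in STZ pools 1 and 3, and 1026 CPM in control pool 3, against 1137 and 1105 CPM in control pools 1 and 2. The tubule genes Slc34a1, Aqp2, Miox and Kap had no row in the tables used here. The part of these cells in the spread of the members was not tested, and in pooled RNA fewer cells of a type cannot be told apart from less RNA per cell.

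**Figure D3:**
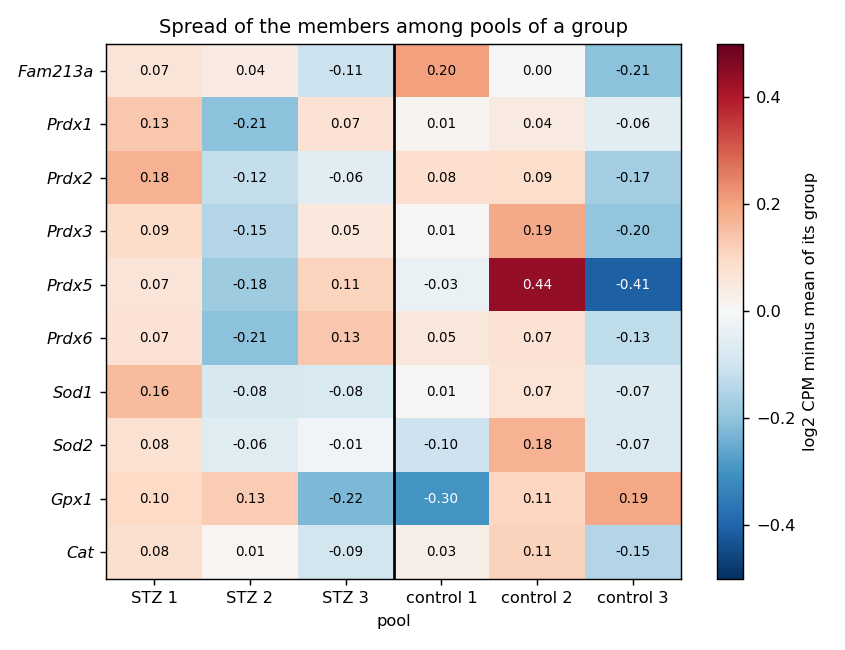
Each cell gives log2 CPM of a gene in a pool minus the mean of its group (colour scale and printed value), with STZ pools left of the line and control pools right of it. The column of control pool 3 is below 0 for 9 of the 10 genes, and Prdx5 has the largest deviations, in control pools 2 and 3.

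The genes that recharge, supply or oppose these enzymes were followed in 6 lists, 111 genes in all, of which 95 were tested. Of these, 9 were higher and 4 lower in STZ and 82 did not pass (edgeR quasi-likelihood test, Benjamini-Hochberg adjusted p under 0.05 over 12786 genes). The share called, 13.7%, compares with 9.78% of all tested genes, of which 5.47% were higher and 4.32% lower, and the median log2 fold change was -0.0022, against -0.01 over all tested genes. Leaving out 1 library left 3 to 8 higher and 1 to 5 lower, with the fewest higher without STZ pool 1 (3), followed by STZ pool 3 and control pool 1 (5 each), and 1 lower without any of STZ pools 1, 2 or 3 or control pools 1 or 2. With the replicate number as a block 6 were higher and 1 lower.

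In the thioredoxin and sulfiredoxin list, 4 of 18 genes rose, 1 fell and 13 did not pass, with a median of 0.10. Txnip, the inhibitor of thioredoxin, had 2075, 1917 and 1958 CPM in STZ pools, against 1276, 1178 and 1071 CPM in control pools (log2 fold change 0.76 ± 0.10, adjusted p = 0.000403 by edgeR), and its groups lay far apart. Sesn1, a sestrin induced by p53, rose to 83.2, 90.5 and 85.5 CPM in STZ pools, against 64.6, 53.8 and 53.5 CPM in control pools (0.59 ± 0.10, adjusted p = 0.00218). Both were called in all 14 alternatives. Srxn1, the sulfiredoxin that restores overoxidised peroxiredoxins, had 59.1, 51.6 and 55.7 CPM in STZ pools, against 43.7, 42.2 and 43.3 CPM in control pools (0.36 ± 0.10, adjusted p = 0.0347). Its call was lost without STZ pools 1 or 3 (adjusted p = 0.180 and 0.110) or control pools 1 or 2 (0.0914 and 0.0707). It was also lost by DESeq2 (0.0561), with a replicate block (0.0617) and after thinning to equal depth (0.0749).

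Txndc12, a thioredoxin-like protein of the endoplasmic reticulum, rose by 0.43 ± 0.11 on the log2 scale (adjusted p = 0.0228), a call lost without STZ pools 1 or 2 (adjusted p = 0.109 and 0.0647) or control pool 3 (0.0516), and after thinning to equal depth (0.0667). Txnrd3, a thioredoxin-glutathione reductase named after its value was seen, had 13.9, 13.4 and 13.8 CPM in STZ pools, against 19.6, 20.1 and 18.1 CPM in control pools (-0.49 ± 0.14, adjusted p = 0.0405). Its call was lost without STZ pools 1, 2 or 3 (adjusted p = 0.136, 0.0894 and 0.111) or control pools 1 or 2 (0.122 and 0.0906). It was also lost by DESeq2 (0.0675), with a replicate block (0.0780) and after thinning to equal depth (0.0733).

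Of 11 tested genes of glutathione peroxidases and glutathione synthesis, Mgst3 rose, Gpx8 fell and 9 did not pass (median 0.08). Mgst3, a membrane glutathione transferase with peroxidase activity, had 39.8, 32.8 and 39.8 CPM in STZ pools, against 22.6, 32.1 and 22.5 CPM in control pools (0.54 ± 0.15, adjusted p = 0.0395). The lowest STZ pool was barely above control pool 2. The Mgst3 call was lost without STZ pools 1 or 3 (adjusted p = 0.153 and 0.126) or control pools 1 or 3 (0.171 and 0.0850), and with a replicate block (0.0741). Gpx8, a peroxidase of the endoplasmic reticulum, had 18.2, 14.01 and 19.3 CPM in STZ pools, against 29.5, 26.98 and 20.3 CPM in control pools (-0.59 ± 0.17, adjusted p = 0.0420). The Gpx8 call was lost without STZ pools 1, 2 or 3 (adjusted p = 0.104, 0.116 and 0.0521) or control pools 1 or 2 (0.196 and 0.0996), with a replicate block (0.0656) and after thinning (0.0617).

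Among 13 other peroxiredoxin, dismutase and peroxide genes, Msrb3 rose and 12 did not pass (median 0.14). Msrb3, a methionine sulfoxide reductase, had 170, 155 and 159 CPM in STZ pools, against 125, 127 and 115 CPM in control pools (0.40 ± 0.09, adjusted p = 0.0109, and 0.0723 without STZ pool 1).

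Among 18 tested sources of superoxide and hydrogen peroxide, 3 rose, 1 fell and 14 did not pass (median -0.02). Xdh, xanthine dehydrogenase, which makes superoxide and peroxide in its oxidase form, had 253, 275 and 272 CPM in STZ pools, against 119, 105 and 88.6 CPM in control pools (1.35 ± 0.11, adjusted p = 7.68e-06), and was called in all 14 alternatives. Its lowest STZ pool stood far above its highest control pool. Aox1, aldehyde oxidase, rose by 0.70 ± 0.18 (adjusted p = 0.0268), and Rac1, the small GTPase of oxidase assembly, by 0.33 ± 0.09 (adjusted p = 0.0430). Noxo1, an organiser of NADPH oxidase, fell by 0.47 on the log2 scale (SE 0.13, adjusted p = 0.0342).

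These last 3 calls did not hold under several of the alternatives. Aox1 was not called without STZ pools 1, 2 or 3 (adjusted p = 0.0536, 0.0642 and 0.0752) or control pools 1 or 2 (0.0520 and 0.0553), or after thinning (0.0882). Rac1 was not called without STZ pools 1, 2 or 3 (0.204, 0.0581 and 0.122) or control pools 1 or 3 (0.162 and 0.0568), with a replicate block (0.106), with upper-quartile normalization (0.0528) or after thinning (0.0504). Noxo1 was not called without STZ pools 1, 2 or 3 (0.160, 0.0518 and 0.0951) or control pools 1 or 2 (0.141 and 0.0549), by DESeq2 (0.0517), with a replicate block (0.0691) or after thinning (0.0637). Without single libraries its log2 fold change, where the call was lost, ran from -0.50 to -0.41. Of the NADPH oxidase genes, Nox1, Nox3, Nox4, Noxa1, Cybb and Ncf4 had no row in the tables used here.

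In NADPH supply, Nnt fell and the other 15 of 16 tested genes did not pass (median -0.05). Nnt, the mitochondrial transhydrogenase whose NADPH serves Prdx3 and Gpx1 in the matrix, had 9.28, 8.73 and 8.42 CPM in STZ pools, against 21.3, 20.6 and 17.2 CPM in control pools (-1.17 ± 0.16, adjusted p = 0.000458), and was called in all 14 alternatives. The highest STZ pool stood far below the lowest control pool. The strain of the mice is not given, and the part of strain in the Nnt difference was not tested. Of 19 tested genes of peroxisome biogenesis, the compartment of catalase, 0 passed in edgeR, DESeq2 or limma-voom, and 1, Pex26, had an unadjusted p under 0.05 in edgeR. Pex26 (-0.33 ± 0.13, adjusted p = 0.121) and Pxmp2 (-0.38 ± 0.21, adjusted p = 0.303) had the smallest p of that list, whose median was -0.03.

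**Figure D4:**
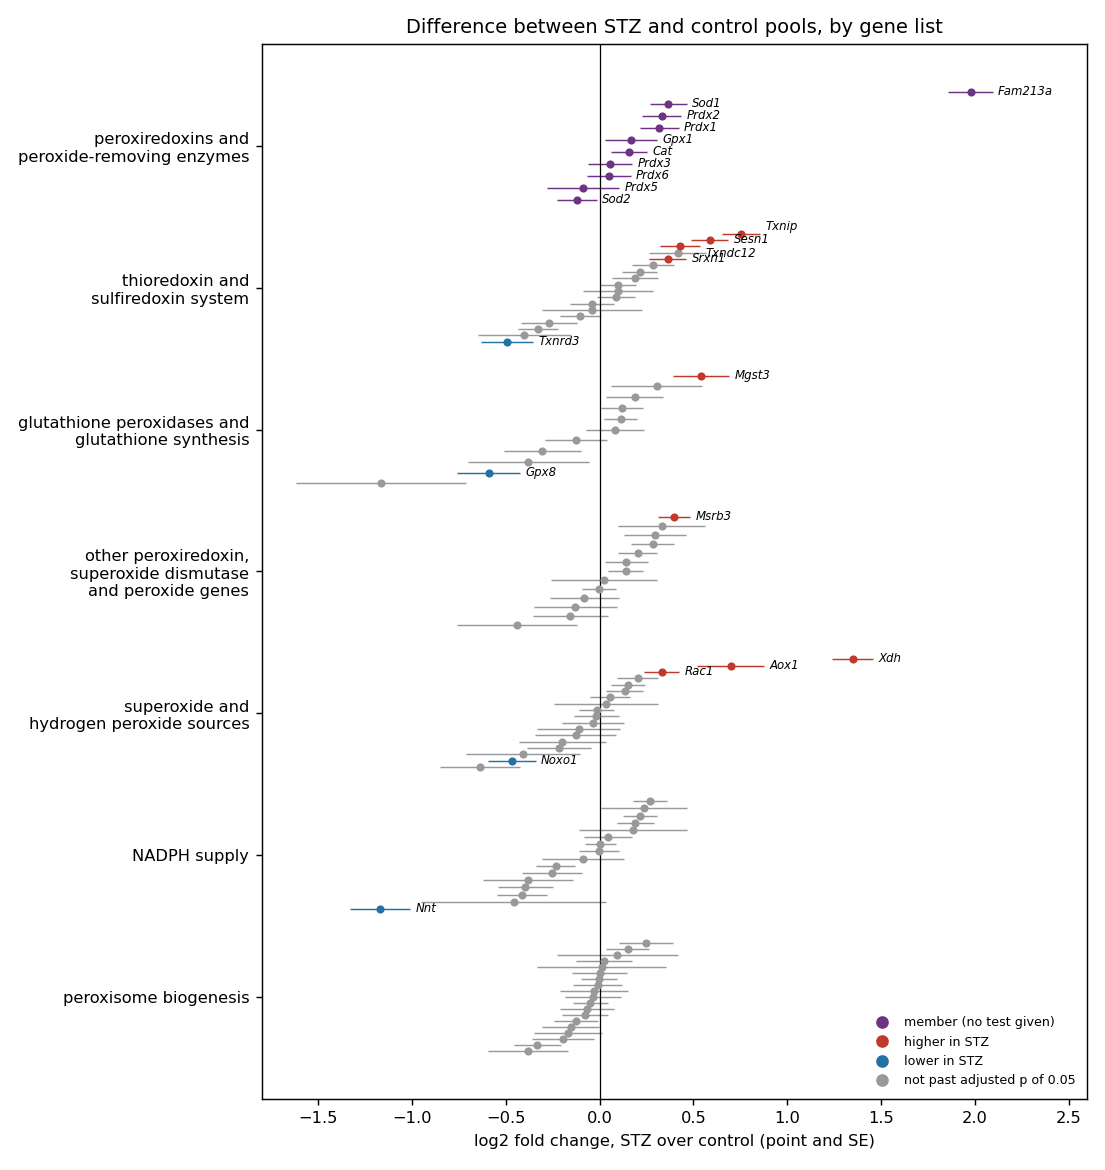
Log2 fold change of STZ over control with its SE (horizontal axis) for the 10 genes (purple, no test given) and the tested genes of the 6 lists, coloured by call and named where called. Fam213a at 1.98 and Xdh at 1.35 lie farthest right and Nnt at -1.17 farthest left.

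The genes whose log2 CPM over the 6 libraries was most like that of Fam213a, out of 10092 genes with a mean of at least 10 CPM, were Carhsp1 (Pearson r 0.9997), Lpin3 (0.9991) and Spsb1 (0.999). The 6 points share the division into groups, which sets most of this likeness. With symbols such as those of predicted, Riken and pseudogene entries left out, 67 genes reached 0.99. The 10092 genes still include those entries. Carhsp1, a calcium-regulated RNA-binding protein, had 192, 189 and 186 CPM in STZ pools, against 127, 122 and 117.5 CPM in control pools, the same order of pools within each group as Fam213a. Lpin3, a phosphatidate phosphatase, had 26.8, 27.07 and 24.8 CPM in STZ pools, against 11.2, 10.1 and 9.72 CPM in control pools. Spsb1, an adaptor of ubiquitin ligases, had 20.7, 21.2 and 19.99 CPM in STZ pools, against 8.13, 6.91 and 6.19 CPM in control pools.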

How the data were processed

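The deposited files hold 1 expected count per gene and library, a multiple of 0.5, with RefSeq accession, coordinates and transcript length; per the submitters' processing notes the build is mm10 and limma was used. The sources used here do not give the aligner, counter or strand setting. The 34 blank cells were read as 0 and values rounded to whole counts. Listed starts plus 1 equalled a GENCODE M21 transcript start in 2321 of 5850 genes with a matching end, against 175 as listed, so 1 was added.

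STZ was tested against control by the quasi-likelihood method of edgeR 4.0.16 (R 4.3.3; robust fit, TMM scaling, default expression filter, two-sided, Benjamini-Hochberg over 12786 genes, threshold 0.05). The SE is that of the fitted log2 fold change. The fit was also run on simulated counts with the same spread for every gene, and no call above rests on that run. Alternatives were DESeq2 1.42.0, limma-voom (limma 3.58.1), RLE and upper-quartile normalization, other filters, thinning, a replicate block and leaving out each library. The members, lists and tests were chosen with earlier results of these data known. Named genes were the members, of each pathway list up to 4 called genes with the smallest p (without calls, 2 as values), the 2 most abundant of each marker list and the 3 most like Fam213a; only part of the marker genes is printed, and 1 marker that the rule names is not reported here. Labels do not say that pools were independent beyond being separate pools of 4 mice, and intervals reflect counting error and pool spread at 4387339 to 12662371.5 counts per library.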

Additional observations from a re-analysis of the deposited data

How the results depend on the processing

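All 10 genes kept the size of their difference within the spread of replicates under the 14 alternatives, except Sod2 after thinning (-0.29), and signs turned only in Prdx3, Prdx5 and Prdx6, as given above. Leaving out 1 library gave 426 to 695 genes called higher and 236 to 596 called lower in STZ, against 699 and 552 with all 6, and 3 to 8 higher and 1 to 5 lower among the 95 pathway genes, against 9 and 4. Thinned to the smallest library, 5 pathway genes were higher and 1 lower. With a replicate block 571 genes were higher and 430 lower, and of the pathway genes 6 were higher and 1 lower. Deviations of same-numbered pools correlated at 0.119, -0.128 and -0.163 for numbers 1, 2 and 3. Pools of different numbers gave -0.243 to 0.295, so same-numbered pools were no more alike. With 3 pools a group these values cannot exclude a pairing. Among marker genes that were not called, leaving out 1 library gave log2 fold changes of -0.0659 to 0.1432 for Podxl and -0.0485 to 1.0176 for S100a8, each lowest without control pool 3. The cause was not tested. The lowest count among the 10 genes was 81, and thinning, which lowers depth, also turned Prdx3 (-0.03). With 3 pools a group the precision of small differences is limited.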
